A study of Mus musculus with 14 samples.

Results

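*Klf2*, *Klf4* and *Klf5* encode Kruppel-like factors, and their transcripts were followed in mouse embryonic stem cells (mESCs) that carry a point mutation in the RNA methyltransferase subunit METTL14. The members were taken by gene name from the deposited count tables, where they are 3 of 52459 genes, and from the deposited lists of m6A peaks, where every peak on an exon of these genes was taken. Wild-type (WT) cells of the E14Tg2a line were compared with R255K cells, a knock-in of the same line made with CRISPR in which the arginine of METTL14 that the name gives is replaced by lysine. Arginine can be methylated by arginine methyltransferases and lysine is not a substrate of these enzymes. The R255K line came from a single colony, so that the mutation and other properties of that clone cannot be told apart. Transcript decay was followed by sequencing polyadenylated RNA from cells kept for 0, 4 or 8 h in actinomycin D, a drug that stops transcription, with 1 library for each genotype and time (6 libraries). N6-methyladenosine (m6A) was mapped by immunoprecipitation of RNA fragments with an antibody (MeRIP-seq), with 2 immunoprecipitated and 2 input libraries per genotype, and is given as 1 peak list per genotype with no value per replicate. With 1 library per genotype and time no test between genotypes was made, and every interval below is a 95% interval that covers counting error only.

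Kruppel-like factors are transcription factors that bind GC-rich and CACCC-type DNA elements through C2H2 zinc fingers at their C terminus. In mESCs, KLF2, KLF4 and KLF5 act beside OCT4, SOX2 and NANOG in the network that keeps the naive pluripotent state, and they can stand in for one another in part. *Klf4* is known as a target of LIF and STAT3 signalling, KLF2 protein is known to be stabilised when MEK is inhibited, and *Klf5* is also needed in the trophectoderm of the early embryo. m6A is written onto mRNA by the METTL3-METTL14 complex, mainly at the adenosine of GGAC and related motifs, and can mark transcripts for decay through reader proteins.

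Each gene held m6A peaks in both genotypes, and the motif copy nearest to each WT peak summit is printed here. The comparison of peaks between the genotypes did not use these motifs. The sequences are from the RefSeq copy of the GRCm38.p6 assembly (mm10), read 5′ to 3′ on the strand of the gene, with GGAC in capitals where the window of 100 bp to each side of the summit held it. The *Klf5* peak in the 3′ UTR held no GGAC in that window, and its AGAC is in capitals instead.
Klf2 coding sequence in exon 2, chr8:72319764-72319787, plus strand: cctggcccacGGACcgcgcgggct
Klf2 3′ UTR in exon 3, chr8:72320997-72321020, plus strand: gctatttattGGACcttaggacag
Klf4 5′ UTR in exon 1, chr4:55532150-55532173, minus strand: caacggtgggGGACactgctgagt
Klf4 coding sequence in exon 3, chr4:55530214-55530237, minus strand: tttgagcgctGGACcccagctcag
Klf4 3′ UTR in exon 5, chr4:55527793-55527816, minus strand: gaacatgcccGGACttacaaaatg
Klf5 5′ UTR in exon 1, chr14:99298797-99298820, plus strand: ggctgcccgaGGACctcggcggtg
Klf5 coding sequence in exon 2, chr14:99301868-99301891, plus strand: cggcagtaatGGACacccttaatg
Klf5 3′ UTR in exon 4, chr14:99313384-99313407, plus strand: tttaaaccgcAGACctaacttcat
The adenosine of the printed motif lay 2 bp from the summit in the *Klf2* coding sequence and 59 bp from it in the *Klf5* 5′ UTR, the nearest and the farthest of the 8. GGAC was found in the windows of 7 of the 8 peaks, against 79% of 13095 exonic WT peaks searched on the strand of their gene. A match describes the letters only, since the peaks do not resolve single bases.

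The 6 decay libraries held 13812160 to 18813640 counted reads. All 8 stem cell markers examined, *Pou5f1* and *Nanog* among them, were at 1 FPKM or more in both genotypes at 0 h, where FPKM is the count of reads scaled to the length of the exons and to the summed counts of the library. For *Mettl14* itself the WT counts were 681, 376 and 232 at 0, 4 and 8 h, and those of R255K 299, 280 and 209. At 0 h the *Mettl14* count was lower in R255K by more than the summed counts differed (17428469 in WT and 15642076 in R255K). The substitution changes a codon and does not remove the transcript, so that this level does not check the genotype. *Klf2* lies at chr8:72319033-72321656 on the plus strand with 1847 bp of exon, *Klf4* at chr4:55527143-55532466 on the minus strand with 3049 bp, and *Klf5* at chr14:99298691-99313405 on the plus strand with 1721 bp in the count tables. No exon of the 3 genes overlapped an exon of another gene. For *Klf5* the counted exons hold only 76 of the 1707 nt of 3′ UTR that GENCODE vM21 gives, so that reads over the rest of it are not in the counts.

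In untreated cells, with libraries scaled by their summed counts, *Klf2* differed between the genotypes by no more than counting error, while *Klf4* and *Klf5* were lower in the R255K library, *Klf5* under every scaling tried and *Klf4* under each but that to *Gapdh*. *Klf2* had 7264 counts in WT and 6402 in R255K, or 226 and 222 FPKM, a ratio of R255K to WT of 0.982, whose interval from 0.949 to 1.02 included 1. *Klf4* had 4220 and 1547 counts, or 79.4 and 32.4 FPKM, and was 2.45-fold (2.31 to 2.6) lower in R255K. *Klf5* had 5195 and 873 counts, or 173 and 32.4 FPKM, and was 5.34-fold (4.97 to 5.74) lower in R255K. The 3 factors therefore span no difference to one of the largest in the table: 11 of 11869 expressed genes (mean of at least 1 FPKM at 0 h) had a lower ratio than *Klf5*, and 339 had a lower ratio than *Klf4*. On the scale of log2(FPKM + 1), 2 of 3 factors were past -1, against 5.92% of expressed genes, and 0 of 3 were past 1, against 6.44%. Those log2 ratios were -0.03 for *Klf2*, -1.27 for *Klf4* and -2.38 for *Klf5*, and the median of all genes was 0.05.

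The balance between the factors differed with the genotype. In WT, *Klf2* and *Klf5* stood above *Klf4*, with 47.2% of the summed FPKM of the 3 transcripts in *Klf2*, 36.2% in *Klf5* and 16.6% in *Klf4*. In R255K, *Klf2* took 77.4%, and *Klf4* and *Klf5* took 11.3% each. The order in WT was *Klf2*, *Klf5*, *Klf4*, every step beyond counting error, whereas in R255K *Klf4* and *Klf5* could not be ordered (*Klf4* over *Klf5* 1, 0.92 to 1.09). The counted exons hold 76 of the 1707 nt of the *Klf5* 3′ UTR, against all of that of *Klf2* and *Klf4*. The effect of this on the shares and the order was not tested. The sum over the 3 transcripts was 478 FPKM in WT and 286 FPKM in R255K. Within the table of genes by FPKM, *Klf2* ranked at 189 in WT and 227 in R255K, *Klf4* at 756 and 2256, and *Klf5* at 282 and 2258.

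After transcription was stopped, all 3 transcripts were depleted quickly in both genotypes. The WT libraries held 112 counts of *Klf2* at 4 h and 60 at 8 h, and the R255K libraries 773 and 348. At 4 h, 1.79% (1.47 to 2.16) of the *Klf2* level of untreated WT cells was left, against 10.2% (9.41 to 10.9) of that of untreated R255K cells. At 8 h, 1.04% (0.795 to 1.34) of *Klf2* was left in WT and 4.52% (4.05 to 5.04) in R255K. These percentages are shares of the FPKM of the 0 h library of the same genotype.

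For *Klf4* the WT libraries held 158 and 100 counts at these times, and the R255K libraries 317 and 135. The share left at 4 h was 4.36% (3.69 to 5.11) in WT and 17.2% (15.2 to 19.5) in R255K, and at 8 h it was 2.99% (2.43 to 3.65) and 7.26% (6.04 to 8.66). For *Klf5* they held 278 and 117 in WT, with 176 and 119 in R255K. Its share left was 6.22% (5.5 to 7.02) in WT and 17% (14.3 to 20) in R255K at 4 h, and 2.84% (2.35 to 3.41) and 11.3% (9.28 to 13.7) at 8 h. For each factor and at each time the share left was higher in R255K with the libraries scaled in this way, and the intervals of the genotypes did not overlap.

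**Figure D1:**
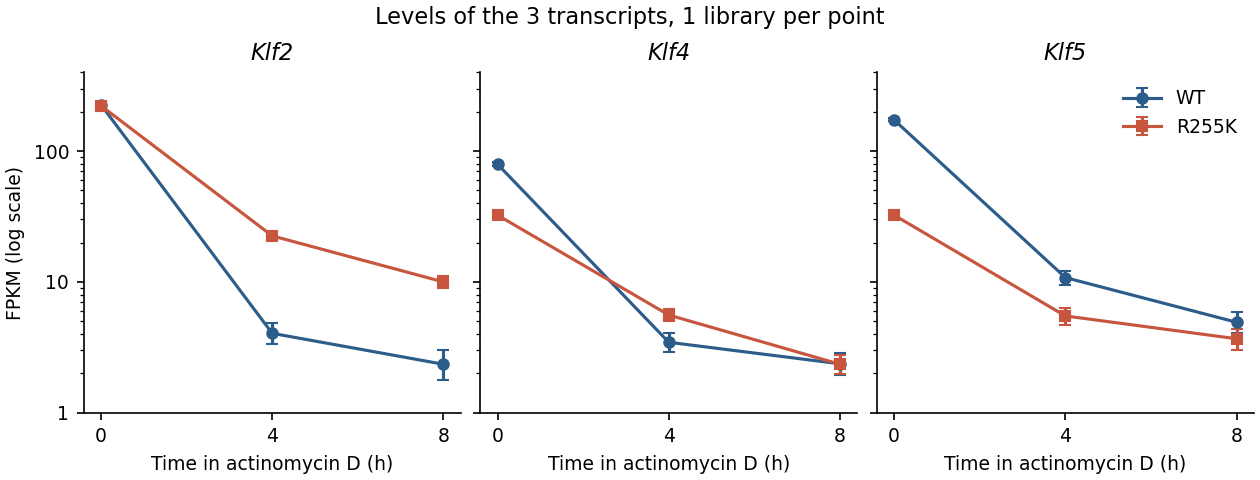
FPKM (log axis) of *Klf2*, *Klf4* and *Klf5* against time in actinomycin D, in WT (blue circles) and R255K (red squares); each point is 1 library, and the bars are 95% counting intervals, often smaller than the symbol. *Klf2* starts at 226 and 222 FPKM and separates after the drug, whereas *Klf5* starts at 173 and 32.4 FPKM and the genotypes draw together.

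Set against WT at the same time, the factors took different courses. *Klf2* was 5.56-fold (4.56 to 6.84) higher in R255K at 4 h, with 4.05 FPKM in WT and 22.5 FPKM in R255K. At 8 h *Klf2* was 4.26-fold (3.23 to 5.7) higher, with 2.35 and 10 FPKM. On the log2(FPKM + 1) scale *Klf2* alone of the 3 was past 1 at 4 h, where 10.8% of genes were, and again at 8 h, where 19% were. Its log2 ratio was 2.22 at 4 h, with 95 of 11869 genes higher, and 1.72 at 8 h, with 581 genes higher.

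*Klf4*, lower in R255K before the drug, was 1.62-fold (1.33 to 1.97) higher in R255K at 4 h, with 3.46 FPKM in WT and 5.59 FPKM in R255K, a direction that turned when *Gapdh* was the reference. By 8 h its ratio was 0.991 (0.76 to 1.3), with 2.37 and 2.35 FPKM, and a difference was not detectable at this depth. *Klf5* remained lower in R255K at 4 h, with 10.8 FPKM in WT, 5.5 FPKM in R255K and a ratio of 0.51 (0.42 to 0.618). At 8 h *Klf5* was at 4.92 and 3.68 FPKM, a ratio of 0.747 (0.574 to 0.972) whose upper bound lay close to 1. The median log2 ratio of all genes was 0.18 at 4 h and 0.33 at 8 h.

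**Figure D2:**
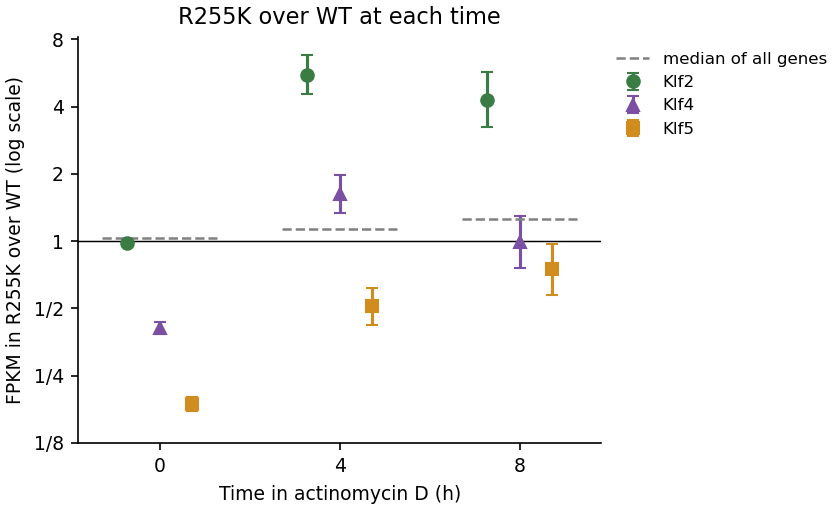
Ratio of FPKM in R255K to that in WT (log axis) at 0, 4 and 8 h for *Klf2* (circles), *Klf4* (triangles) and *Klf5* (squares), with 95% counting intervals; the dashed lines give the median of all genes on the log2(FPKM + 1) scale and the solid line marks equal levels. *Klf2* goes from 0.982 to 5.56 and 4.26, *Klf4* from 0.408 to 1.62 and 0.991, and *Klf5* from 0.187 to 0.51 and 0.747.

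Half-lives were calculated from the mean of the decay rates from 0 to 4 h and from 0 to 8 h. The WT half-life of *Klf2* was 0.88 h (0.849 to 0.913) and the R255K half-life 1.45 h (1.41 to 1.48). *Klf4* had 1.13 h (1.09 to 1.18) and 1.81 h (1.72 to 1.9). *Klf5* had 1.22 h (1.18 to 1.26) and 1.94 h (1.81 to 2.08). The 3 were among the shortest-lived transcripts of either genotype: by decay rate among 11847 genes, *Klf2* ranked 6, *Klf4* 105 and *Klf5* 163 in WT, and 84, 182 and 242 in R255K.

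The ratio of the R255K to the WT half-life was 1.64 (1.57 to 1.72) for *Klf2*, 1.59 (1.49 to 1.7) for *Klf4* and 1.59 (1.47 to 1.72) for *Klf5*. All 3 of 3 were above 1.5, which 68.8% of the 5504 genes with a half-life in both genotypes were as well, and the intervals of *Klf4* and *Klf5* included 1.5. A half-life needs a decay rate above 0, which the rest of the 11847 ranked genes did not have in both genotypes. The median ratio of those genes was 1.98, from median half-lives of 3.48 and 8.08 h in the WT and R255K libraries. A lower ratio than that of the factors was found for 35.3% to 37.4% of the genes. With summed counts as the scale, the 3 factors thus stood below the median ratio of these 5504 genes. The same held with TMM, median of ratios, ribosomal protein genes or genes without a peak as the scale, with medians from 1.76 to 2.4. Relative to *Gapdh* alone, the factors stood above the median, which was then 0.549. The drop in the decay rate itself was not set against that of other genes.

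Differences between the factors within a library do not depend on how that library was scaled. The decay rate of *Klf2* exceeded that of *Klf4* by 0.177 per h (0.14 to 0.214) in WT and by 0.0957 per h (0.0727 to 0.119) in R255K. It exceeded that of *Klf5* by 0.218 per h (0.184 to 0.253) in WT and by 0.122 per h (0.0939 to 0.149) in R255K. *Klf4* and *Klf5* were 0.0415 per h (0.0109 to 0.072) apart in WT, and in R255K the interval of their difference, -0.00594 to 0.0576 per h, included 0. By this mean rate *Klf2* decayed fastest in both genotypes. The step from *Klf4* to *Klf5* in WT came from the first window, at 0.0893 per h (0.0394 to 0.139) from 0 to 4 h, and was not detectable from 0 to 8 h, at -0.00636 per h (-0.0401 to 0.0274). From 4 to 8 h *Klf4* decayed more slowly than *Klf5* in WT, by -0.102 per h (-0.185 to -0.0193).

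The decay rate dropped from WT to R255K by 0.308 per h (0.278 to 0.339) for *Klf2*, by 0.227 per h (0.197 to 0.258) for *Klf4* and by 0.212 per h (0.18 to 0.243) for *Klf5*. The drop was larger for *Klf2* than for *Klf4* by 0.0811 per h (0.0375 to 0.125) and than for *Klf5* by 0.0967 per h (0.0527 to 0.141). *Klf2* also had the highest rate in WT, 0.788 per h against 0.611 for *Klf4* and 0.57 for *Klf5*. In proportion, the half-life ratios from the mean rate were close (1.64, 1.59 and 1.59) and their intervals overlapped. By window they were less alike. For *Klf2*, *Klf4* and *Klf5* they were 1.76, 1.78 and 1.56 from 0 to 4 h. From 0 to 8 h they were 1.47, 1.34 and 1.64. Between *Klf4* and *Klf5* the drop differed by 0.0156 per h, with an interval of -0.0284 to 0.0597. This mean joined opposite differences, 0.0934 per h (0.0224 to 0.164) from 0 to 4 h and -0.0621 per h (-0.109 to -0.0152) from 0 to 8 h. The larger drop of *Klf2* against *Klf4* was also seen from 0 to 4 h, at 0.0896 per h (0.0188 to 0.16), and from 0 to 8 h, at 0.0726 per h (0.0247 to 0.12). Against *Klf5* it was 0.183 per h (0.112 to 0.254) from 0 to 4 h and was not detectable from 0 to 8 h, at 0.0105 per h (-0.0374 to 0.0583).

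The R255K to WT ratio of *Klf2* exceeded that of *Klf4* by 2.4-fold (2.25 to 2.57) at 0 h, 3.44-fold (2.61 to 4.53) at 4 h and 4.3-fold (2.95 to 6.26) at 8 h. It exceeded that of *Klf5* by 5.24-fold (4.85 to 5.68), 10.9-fold (8.29 to 14.3) and 5.7-fold (3.92 to 8.29). The ratio of *Klf4* exceeded that of *Klf5* by 2.18-fold (1.99 to 2.39) at 0 h and 3.17-fold (2.42 to 4.15) at 4 h, and at 8 h the interval, 0.923 to 1.91, included 1. *Klf2* was thus the least reduced of the 3 in R255K at each time, under any scaling of the libraries.

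Most of the loss took place before 4 h, and the windows before and after 4 h gave different comparisons. From 0 to 4 h the half-lives in WT and R255K were 0.69 and 1.21 h for *Klf2*, 0.885 and 1.58 h for *Klf4*, and 0.999 and 1.56 h for *Klf5*. From 4 to 8 h *Klf2* had 5.11 h (3.24 to 12.1) in WT and 3.42 h (2.96 to 4.06) in R255K, and *Klf4* had 7.37 h (4.43 to 22.1) and 3.2 h (2.6 to 4.18). *Klf5* had 3.54 h (2.77 to 4.88) and 6.88 h (4.36 to 16.3) in that window. The longer half-life in R255K thus held for *Klf2* and *Klf4* from 0 to 4 h and not from 4 to 8 h, where WT rested on 60 to 158 counts of these genes, and it held for *Klf5* in both windows.

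The scaling of the libraries moved the size of the half-life ratios and 1 choice turned their direction. Scaled by TMM, median of ratios, ribosomal protein genes or genes without a peak, the ratio stayed between 1.51 and 1.73 for the 3 factors. Relative to *Gapdh*, the reference gene of the study's quantitative PCR, it was 1.05 for *Klf2*, 0.92 for *Klf4* and 0.887 for *Klf5*, while the median over genes was 0.549. The counts of *Gapdh* over the same times were 995, 242 and 2357 for WT and 331, 787 and 1875 for R255K. At 0 h, the *Gapdh* scaling put *Klf4* at a log2 ratio of 0.14, *Klf5* at -0.98 and *Klf2* at 1.40. *Klf2* was higher in R255K at 4 and 8 h under all 6 scalings, with a log2 ratio without a pseudocount of at least 1.09 at 4 h and 1.49 at 8 h. *Klf4* was between 0.42 and 0.90 at 4 h under 5 of the 6 scalings and at -0.70 relative to *Gapdh*, and at 8 h it ranged from -0.62 to 0.76 and changed sign. *Klf5* was lower in R255K at 4 h under all 6, and at 8 h it ranged from -1.03 to 0.35, higher in R255K relative to *Gapdh* alone.

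**Figure D3:**
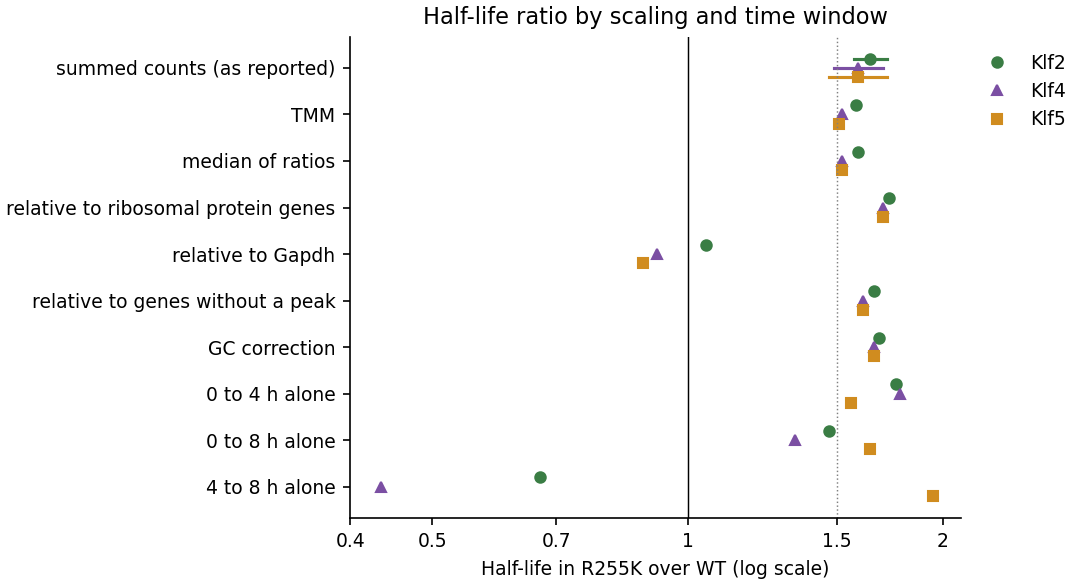
Ratio of the half-life in R255K to that in WT (log axis) for *Klf2* (circles), *Klf4* (triangles) and *Klf5* (squares) under each scaling and time window; the bars in the top line are 95% counting intervals, the solid line marks 1 and the dotted line 1.5. The *Gapdh* scaling (1.05, 0.92 and 0.887) and the window from 4 to 8 h (0.67, 0.435 and 1.95) stand apart from the values of 1.34 to 1.78 elsewhere.

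The transcripts are GC-rich, and the R255K to WT ratio of genes varied with their GC content. The exons of *Klf2* held 61.6% GC, those of *Klf4* 54.9% and those of *Klf5* 60.3%, more than in 97.7%, 76.7% and 96.2% of expressed genes, whose median was 49.9%. At 0 h, the fitted trend of R255K over WT with GC content stood at 0.22, 0.12 and 0.21 on the log2 scale for *Klf2*, *Klf4* and *Klf5*. These values are relative to the median of the trend. Corrected for that trend, the log2 ratio at 0 h was -0.24 for *Klf2*, -1.39 for *Klf4* and -2.59 for *Klf5*, and the half-life ratios were 1.68, 1.66 and 1.66.

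All 8 WT peaks on the exons of the 3 genes were overlapped by an R255K peak, so that m6A enrichment was called at each place in both genotypes. Over all 13870 exonic WT peaks, 52.1% were overlapped, and 71.4% of the 8615 with a −log10 q at or above the weakest of the 8, 16.6. That share rose with the −log10 q. It was 28.4% from 12.6 to 17.7, 67.7% from 35.1 to 49.7, 83.4% from 49.7 to 71.9 and 95% from 71.9 to 105. The 8 peaks lay in these ranges, most of them in the upper ones. The R255K list held 9 peaks on these genes, none of them without a WT peak. *Klf2* had 2 WT peaks, at the coding sequence of exon 2 and in the 3′ UTR, whereas *Klf4* and *Klf5* each had 3, in the 5′ UTR, the coding sequence and the 3′ UTR. The fold enrichment is the rise of immunoprecipitated over input signal at the summit as MACS2 gives it, and −log10 q is its significance, which also grows with the reads at the place.

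**Figure D4:**
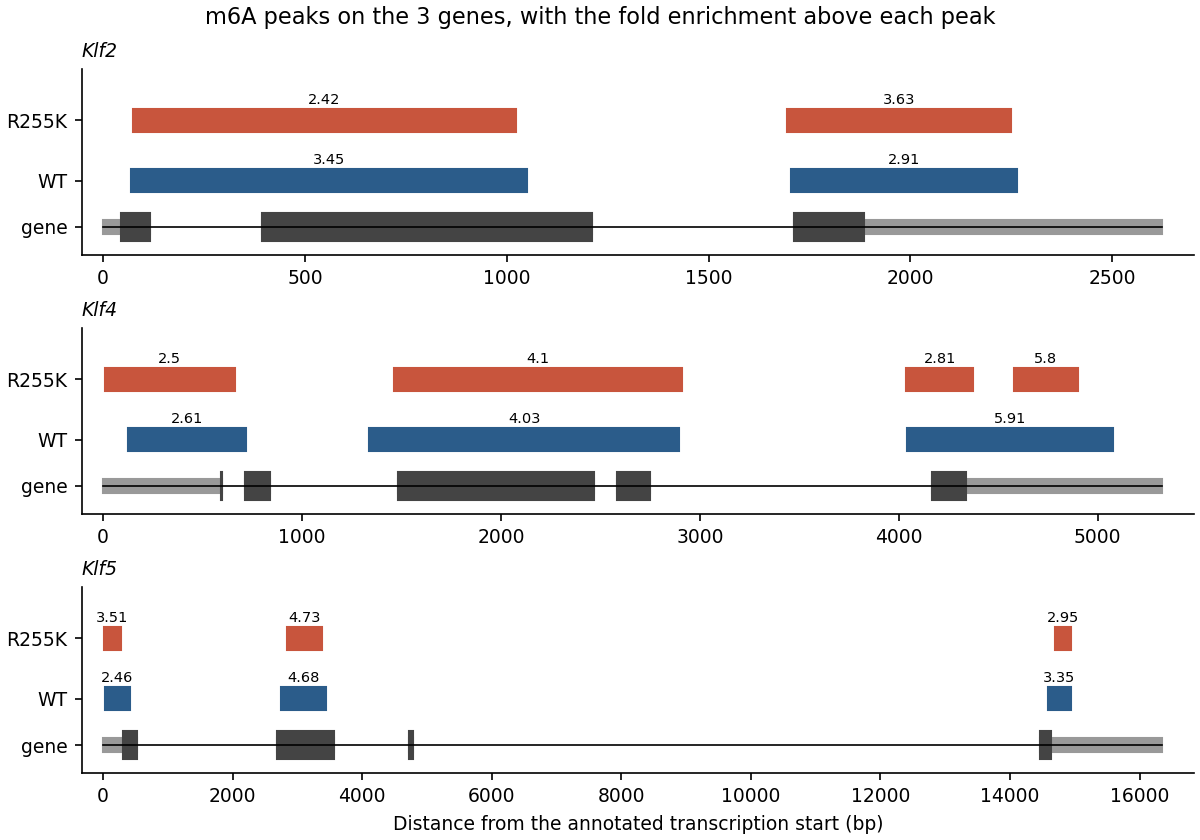
m6A peaks of WT (blue) and R255K (red) on *Klf2*, *Klf4* and *Klf5*, by distance in bp from the annotated start of transcription; exons are grey, coding sequence is dark, and the number above each peak is its fold enrichment. Every WT peak has an R255K peak over it, and the WT peak at the end of *Klf4* (5.91) faces 2 R255K peaks (2.81 and 5.8).

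In *Klf2*, the 2 peaks went opposite ways. At the peak in the coding sequence the fold enrichment was 3.45 in WT and 2.42 in R255K, with a −log10 q of 73.8 and 24.9. The peak whose summit lay in the 3′ UTR, 62 nt past the stop codon in WT, had 2.91 and 3.63, with a −log10 q of 67.2 and 83.4.

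In *Klf4*, the fold enrichments were close in the 2 genotypes while the −log10 q was lower in R255K. The peak in the 5′ UTR had 2.61 in WT and 2.5 in R255K (−log10 q of 16.6 and 7.79), and the peak in the coding sequence of exon 3 had 4.03 and 4.1 (77.3 and 46.1). The third, with its summit in the 3′ UTR, was the most enriched of the 8, with 5.91 in WT and 5.8 in R255K (81.7 and 40.6). In R255K it was split, with a second peak of 2.81 (10.8) whose summit lay in the coding end of exon 5, and both together covered 63% of the 1036 bp of the WT peak.

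In *Klf5*, the peak in the 5′ UTR had a fold enrichment of 2.46 in WT and 3.51 in R255K, with a −log10 q of 17.1 and 29.1. The peak in the coding sequence of exon 2 had 4.68 and 4.73 (85.1 and 50.1), with summits 4 bp apart. The peak in the 3′ UTR had 3.35 and 2.95 (44.2 and 17.4), with its WT summit 123 nt past the stop codon and beyond the end of the counted exon. *Klf5* RNA was 5.34-fold lower in R255K at 0 h, and the part of that difference in the −log10 q was not tested.

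Fold enrichment was lower in R255K at 4 of the 8 peaks, against 70.6% of the 7231 exonic WT peaks that were overlapped. The −log10 q was lower at 6 of the 8, against 83.7%. The exceptions for −log10 q were the *Klf2* peak in the 3′ UTR and the *Klf5* peak in the 5′ UTR, both of which also had a higher fold enrichment. The ratio of R255K to WT fold enrichment ran from 0.701 in the *Klf2* coding sequence to 1.42 in the *Klf5* 5′ UTR, and its median over all overlapped exonic peaks was 0.797. All 8 WT peaks had a fold enrichment below the median exonic WT peak, 6.17, while 6 of the 8 had a −log10 q above the median of 24.8. With only peaks of a fold enrichment of at least 4 in both lists, 3 WT peaks remained and all 3 were overlapped.

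**Figure D5:**
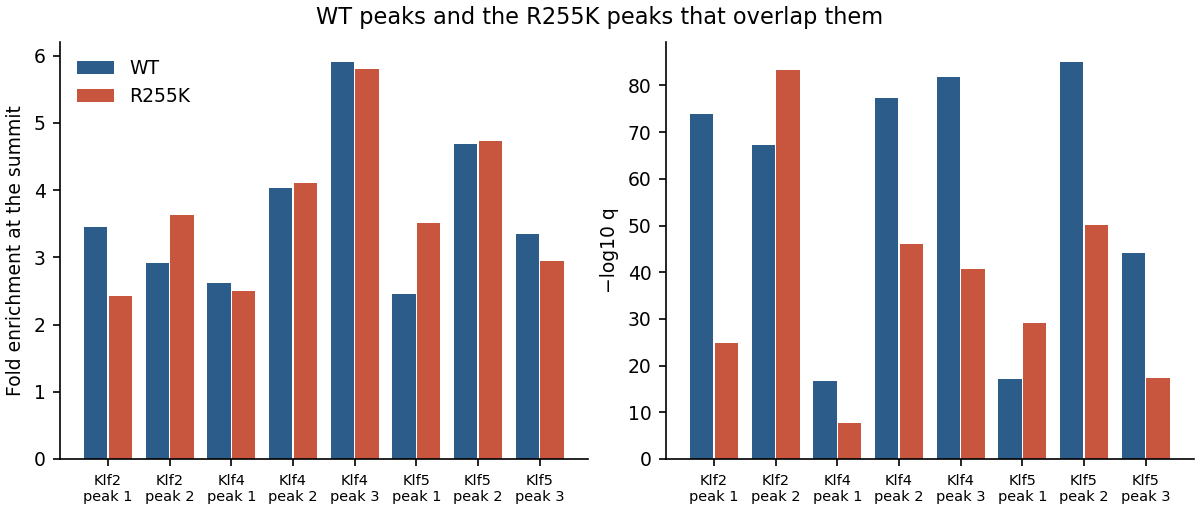
Fold enrichment at the summit (left) and −log10 q (right) of the 8 WT peaks (blue) and of the R255K peak over each (red), numbered from 5′ to 3′ in each gene; for the split *Klf4* peak 3 the stronger R255K peak is drawn. Fold enrichment is higher in R255K at *Klf2* peak 2 (3.63), *Klf4* peak 2 (4.1), *Klf5* peak 1 (3.51) and *Klf5* peak 2 (4.73), and −log10 q is higher only at *Klf2* peak 2 and *Klf5* peak 1.

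The transcripts differed in motif content. GGAC occurred 12 times in the *Klf2* transcript, 15 times in *Klf4* and 9 times in *Klf5*, or 6.5, 4.95 and 2.68 per kb. ATTTA, the core of AU-rich decay elements, searched on the transcript strand, occurred 1 time in the 3′ UTR of *Klf2*, 1 time in that of *Klf4* and 4 times in that of *Klf5*. Per kb of 3′ UTR this was 1.36, 1.02 and 2.34, against a median of 1.29 over 9718 expressed coding genes, 68.2% of which held at least 1 copy.

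Among the other 23 KLF and SP genes, 15 were expressed, and at 0 h 5 of the 15 were past 2-fold lower in R255K and 1 was past 2-fold higher, against 5.92% and 6.44% of all expressed genes. *Klf9* (-1.0), *Klf12* (-1.44), *Klf15* (-1.51), *Sp1* (-1.06) and *Sp3* (-1.33) were lower on the log2(FPKM + 1) scale, *Klf9* at the threshold itself, and *Sp5*, a target of Wnt signalling, was higher at 1.55. Their median was -0.53, between *Klf2* and *Klf4*. The other expressed members were *Klf3*, *Klf6*, *Klf8*, *Klf10*, *Klf11*, *Klf13*, *Klf16*, *Sp2* and *Sp4*, at -0.84 (*Klf8*) to 0.52 (*Klf16*). A half-life ratio was obtained for 14 of the 15 and was above 1.5 for 9, with a median of 1.62, against 68.8% and a median of 1.98 over the 5504 genes. *Sp3* (6.12) and *Sp1* (4.92) had the highest ratios, and *Klf15* (1.02) the lowest.

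No expressed member of the family decayed faster than *Klf2* or *Klf4* in WT, and *Klf10*, with a half-life of 1.2 h, decayed faster than *Klf5*. *Klf10* resembled *Klf2* in part: its counts over the 3 times were 1408, 64 and 38 for WT and 1012, 200 and 176 for R255K, and its log2 ratios were -0.31, 0.92 and 1.10. The counts of *Klf9* were 2309, 154 and 60 for WT and 1010, 164 and 92 for R255K, with half-lives of 1.3 and 1.69 h. Of the 42 exonic WT peaks on all 23 genes, 22 were overlapped by an R255K peak, and of the 33 on the 15 expressed genes 20 were, against 52.1% of all exonic WT peaks.

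All 15 genes of the stem cell network listed beside the factors were expressed, and 4 were past 2-fold lower in R255K at 0 h, with none past 2-fold higher, against 5.92% and 6.44% of all expressed genes, and their median log2 ratio was -0.57. These were the transcription factor genes *Tbx3* (-1.96), *Tfcp2l1* (-1.77) and *Esrrb* (-1.10) and the AKT coactivator gene *Tcl1* (-1.50), and *Klf5* at -2.38 lay below each of them. *Prdm14* (-0.99) and *Gbx2* (-0.98) lay just short of the threshold. *Pou5f1*, *Sox2*, *Nanog*, *Zfp42*, *Stat3*, *Nr5a2*, *Sall4*, *Fgf4* and *Dppa5a* lay between -0.83 (*Nr5a2*) and 0.10 (*Sall4*).

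A half-life ratio was obtained for 12 of these 15 genes and was above 1.5 for 8, with a median of 1.77, against 68.8% and 1.98 over all genes with a ratio. *Nanog* had the highest, 7.74, from half-lives of 6.5 and 50.3 h, the latter far beyond the 8 h sampled. *Sox2*, also short-lived, had half-lives of 1.32 and 1.3 h in WT and R255K. Only *Gbx2*, a homeobox gene downstream of LIF, decayed faster than *Klf4* in WT, with half-lives of 0.972 and 1.25 h, and *Tbx3* at 1.2 h also decayed faster than *Klf5*. On these genes 19 of 26 exonic WT peaks were overlapped by an R255K peak, against 52.1% of all.

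The profile of each factor over the 6 libraries, as log2(FPKM + 1) centred on the mean of the gene, was set against those of the other 11868 expressed genes by root-mean-square difference. Among the 5 nearest to *Klf2* were *Cited2* (0.51), a transcriptional coregulator, *Slc38a2* (0.52), an amino acid transporter, *Epha2* (0.60), an ephrin receptor, and *Sgk1* (0.64), a kinase. Among the 5 nearest to *Klf4* were *Klf9* (0.28), *Gm27326* (0.30), *Wee1* (0.33), a cell-cycle kinase, and *Hes1* (0.33), a Notch target, although *Gm27326* had at most 25 counts in a library. The nearest to *Klf5* were *Bmp4* (0.30), a BMP ligand, *Tbx3* (0.39), *Snora31* (0.40), with at most 75 counts, *Inhbb* (0.47), an activin subunit, and *Dact2* (0.47), a modulator of Wnt and Nodal signalling.

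The factors were not each other's nearest genes. *Klf4* was at rank 9 from *Klf5*, at 0.53, and *Klf5* at rank 54 from *Klf4*. *Klf2* lay farther from both, at 0.96 from *Klf4* and 1.41 from *Klf5*. The counts of *Bmp4* over the 3 times were 1837, 72 and 47 for WT and 226, 23 and 17 for R255K. Those of *Cited2* were 1937, 36 and 14 for WT and 1565, 134 and 77 for R255K, with a level at 0 h close to that of WT and more left after the drug, as for *Klf2*.

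Markers of other cell types moved with the genotype beside these values. The summed FPKM at 0 h of 6 trophoblast markers was 18.1 in WT and 75.9 in R255K, with 3 and 5 of the 6 at 1 FPKM or more. The keratin genes *Krt8* (9.6 and 35.7 FPKM) and *Krt18* (2.42 and 25.8 FPKM) made up most of that sum in R255K, while *Cdx2* was at 0.0508 and 1.67 FPKM and *Elf5* at 0 and 0.0326 FPKM. The sum of 6 markers of primitive endoderm was 9.64 and 6.29, with *Sox7* (3.67 and 0.756 FPKM) and *Gata4* (3.35 and 1.74 FPKM) lower in R255K and *Foxa2* (0.291 and 1.67 FPKM) and *Sox17* (0.325 and 0.63 FPKM) higher. The sum of 7 fibroblast markers was 1.66 and 5.96 with *Postn* and *Lum* at 0 in both, and that of 6 markers of 2-cell-like cells was 0 and 4.39. The sum of the 8 stem cell markers was 2839 in WT and 2439 in R255K. Their part in the levels of *Klf4* and *Klf5* was not tested, and in bulk RNA fewer cells of a type and less RNA per cell cannot be told apart.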

How the data were processed

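The authors deposited, for each genotype, a table of raw read counts per gene with 1 column per time in actinomycin D, and a list of m6A peaks with positions on mm10, a fold enrichment (a ratio of immunoprecipitated to input signal) and a −log10 q value. Per the labels, MeRIP-seq was done on 2 immunoprecipitated and 2 input libraries per genotype; how the replicates were combined for the peak lists, and the tool that gave the counts, are not given in the sources used here. The submitters' processing notes name HISAT2, MACS2, Bowtie2 2.2.6, Picard 2.16.0 and SAMtools 0.1.09. The p-value and score columns of the deposited peak lists were not used.

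Each count was divided by the exon length given in its table and by the library's summed counts to give FPKM. Ratios used log2(FPKM + 1) and genes with a mean of at least 1 FPKM at 0 h. The decay rate was the natural log of the FPKM at 0 h over that at 4 or 8 h, per hour, averaged over both intervals, with counts under 3 at 4 or 8 h set to 3. Intervals (95%) were exact Clopper-Pearson for ratios of 2 counts and delta-method Poisson for half-lives and for pairs of factors. Reads without molecular identifiers are not independent molecules. Decay calculations were tested on simulated Poisson counts with a constant decay rate for each gene. The 3 factors decayed more slowly after 4 h, a setting that the simulation does not cover. Peaks overlapped when they shared at least 1 bp. Exons were those of the count tables, and coding sequence and UTRs those of GENCODE vM21. Profiles, TMM factors and figures used Python 3.11.15, pandas 2.3.3, pysam 0.24.0, matplotlib 3.10.9 and edgeR 4.0.16 (for the factors only, with no edgeR test). Alternatives were other scalings, a GC correction (lowess, span 0.3), pseudocounts, time windows, an FPKM filter and peak thresholds.

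Named genes are the 3 factors, the expressed members of both lists, the 5 genes nearest in profile to each factor, *Mettl14* and *Gapdh*. Some of the genes nearest in profile are not reported here. The members and lists were chosen with earlier results of these data known. Samples were grouped by the genotype and time in their labels. Individual MeRIP libraries were not analysed here.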

Additional observations from a re-analysis of the deposited data

How the results depend on the processing

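The half-life ratio of *Klf2* (1.64) was 1.73 relative to ribosomal protein genes, 1.05 relative to *Gapdh*, 1.76 from 0 to 4 h, 1.47 from 0 to 8 h and 0.67 from 4 to 8 h. That of *Klf4* (1.59) was 0.92 relative to *Gapdh*, 1.78 from 0 to 4 h, 1.34 from 0 to 8 h and 0.435 from 4 to 8 h. That of *Klf5* (1.59) was 0.887 relative to *Gapdh* and 1.95 from 4 to 8 h. A least-squares slope over 0, 4 and 8 h equals the 0 to 8 h rate by construction and gave 1.47 for *Klf2* and 1.34 for *Klf4*. The log2 ratio of *Klf2* at 0 h (-0.03) was -0.14 with median of ratios, -0.17 relative to ribosomal protein genes, 1.40 relative to *Gapdh* and -0.24 with the GC correction. That of *Klf4* (-1.27) was -1.42 relative to ribosomal protein genes, 0.14 relative to *Gapdh* and -1.39 with the GC correction. That of *Klf5* (-2.38) was -2.53, -0.98 and -2.59 in the same order. With median of ratios the values at 0 h were -1.37 for *Klf4* and -2.49 for *Klf5*, a shift just beyond the counting interval of each. The remaining scalings and pseudocounts moved these values by less than their counting intervals. With a fold enrichment of at least 4 in both lists, 3 WT peaks remained, since fewer entered. With exons of GENCODE vM21, an alternative chosen after seeing the data, 8 of 8 were overlapped. With all genes of at least 1 count at 0 h in both genotypes in place of the FPKM filter, a set that also leaves out genes at 0 in 1 genotype, 699 genes were past -1 and 830 past 1 at 0 h (703 and 764 with the filter), and 4886 had a half-life ratio above 1.5 (3787). Differences between factors in decay rate per h were recomputed by window, an alternative also chosen after seeing the data. *Klf2* minus *Klf4* (0.177 in WT, 0.0957 in R255K) was 0.222 and 0.132 from 0 to 4 h, 0.132 and 0.0592 from 0 to 8 h, and 0.0417 and -0.0139 from 4 to 8 h. In WT, from 0 to 4 h, 0 to 8 h and 4 to 8 h, *Klf2* minus *Klf5* (0.218) was 0.311, 0.125 and -0.0603, and *Klf4* minus *Klf5* (0.0415) was 0.0893, -0.00636 and -0.102. In R255K *Klf4* minus *Klf5* (0.0258) was 0.116 from 4 to 8 h. For the drop from WT to R255K over the same windows, *Klf2* minus *Klf5* (0.0967) was 0.183, 0.0105 and -0.162, and *Klf4* minus *Klf5* (0.0156) was 0.0934, -0.0621 and -0.218. Why the values moved was not tested.

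No paired analysis was possible because the peak lists do not carry the replicate numbers of the MeRIP libraries, the decay libraries have no replicate numbers to pair, and no result here comes from a test. With 1 library per genotype and time, leaving out a replicate was not possible either, and the spread between cultures is unknown. At 4 and 8 h, counts of 60 to 773 limited the precision of the 3 factors, and the peak lists give no error for a fold enrichment.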
